A study of Rattus norvegicus with 20 samples.

Results

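Contralateral dorsal root ganglia (DRG) were compared between rats fed a fish oil diet (FOD) and rats fed a soy oil diet (SOD). All of these rats had chronic constriction injury (CCI), in which loose ligatures are tied around the left sciatic nerve, and the ganglia came from the right, uninjured side. The libraries were chosen by diet, surgery, and side as their labels give them, which took 6 of the 20 libraries of the study: 3 of FOD-CCI rats and 3 of SOD-CCI rats, each from a different rat. The other 14 libraries are left DRG of injured rats and of sham rats (CT), in which the nerve was exposed but not tied.

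The animals were female Sprague-Dawley rats of wild-type genotype. The SOD group received the AIN-93G diet with soy oil, and in the FOD group fish oil, rich in the omega-3 fatty acids EPA and DHA, took the place of most of the soy oil in that diet. Feeding began 4 weeks before surgery. The study places the collection of DRG 1 week after surgery, and the labels give 1 week of recovery. The diets are described as going on for 4 weeks after surgery, which is longer than the time to that collection. Contralateral DRG were taken from CCI rats, which carry an injury on the other side, so they are not uninjured animals. The left DRG of these 6 rats were also sequenced.

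A DRG holds the cell bodies of sensory neurons, wrapped by satellite glia, together with myelinating Schwann cells, resident macrophages, fibroblasts, and blood vessels. Dietary EPA and DHA are taken up into membrane phospholipids, are ligands of the nuclear receptors PPAR, and in liver lower the SREBP-1 driven genes of fatty acid synthesis and desaturation. The same fatty acids are substrates of the cyclooxygenases and lipoxygenases that make prostaglandins and resolvins, and their double bonds are prone to peroxidation, which the selenoprotein Gpx4 reverses in membranes.

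The sequences just upstream of the start sites are shown for some of the genes whose difference between diets passed the test described further on, because these genes were all higher on FOD. RefSeq, build GRCr8, gave a promoter for 12 of those 17 genes. In the 50 bases before the start, TATAAA, searched on both strands, was found in 5 of the 12 and in 3.17% of 33469 promoters of all genes. Among the promoters of 10684 tested genes it was found in 1.68%. A match describes letters and is not a shown binding site. The motif began 30 and 28 bases before the start in Hba-a1 and Hba2, 42 in S100a9, 44 in Postn, and 10 in Rpl36a. Hba-a1 and Hba2 are both alpha globin genes with nearly the same letters here, so their matches are not separate. Capitals mark the motif in Hba-a1 (chr10:15816944-15816993, minus strand, listed by RefSeq as Hba-a3), Hba2 (chr10:15829139-15829188, minus strand, listed as Hba-a2), S100a9 (chr2:178490623-178490672, minus strand), Postn (chr2:140678011-140678060, plus strand), and Rpl36a (chrX:102059399-102059448, plus strand). Lyz2 (chr7:54798012-54798061, minus strand) and Rpl31 (chr9:49143061-49143110, plus strand) are shown as promoters without it.
Hba-a1: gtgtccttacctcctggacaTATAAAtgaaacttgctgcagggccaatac
Hba2: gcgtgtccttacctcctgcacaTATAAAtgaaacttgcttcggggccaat
S100a9: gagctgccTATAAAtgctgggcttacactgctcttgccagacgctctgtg
Postn: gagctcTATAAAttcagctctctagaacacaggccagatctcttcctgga
Rpl36a: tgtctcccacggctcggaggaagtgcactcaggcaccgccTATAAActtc
Lyz2: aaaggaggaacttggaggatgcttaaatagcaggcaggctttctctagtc
Rpl31: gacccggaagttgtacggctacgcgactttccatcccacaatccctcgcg

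The library of FOD-CCI replicate 1 was far lower than the others in the defining transcripts of DRG neurons. Levels are given as CPM, counts scaled to a common library size with TMM factors over all 20 libraries. Isl1 and Prdm12, transcription factors of sensory neurons, were at 0 in it and between 25.0 and 95.6 CPM in the other 5 libraries. Avil, an actin-binding protein of these neurons, was at 4.8 CPM against 466 to 718 CPM. The mean of the 14 sensory neuron markers was 5.68 on the log2 CPM scale in this library and 9.96 to 10.19 in the others.

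Markers of the central nervous system were high in that library alone. Mobp, a myelin protein of oligodendrocytes, reached 724 CPM and was at most 0.990 CPM in the other 5. Aqp4, the astrocyte water channel, reached 1900 CPM against at most 18.1 CPM. Slc6a5, the glycine transporter of inhibitory spinal neurons, reached 298 CPM against at most 0.380 CPM. The Schwann cell markers nevertheless summed to 31700 CPM in it, within the 8590 to 37100 CPM of the others. The data thus go against the DRG label of this library, and results are given with and without it.

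Other libraries also stood apart in parts of their composition. The 8 Schwann cell markers averaged 7.40 in SOD-CCI replicate 1 and 8.71 to 9.52 in the other 5 on the log2 CPM scale. The fibroblast markers averaged 5.71 in the same library and 7.51 to 8.45 in the rest. Skeletal muscle transcripts summed to 8630 CPM in FOD-CCI replicate 3, 2040 CPM in SOD-CCI replicate 2, and 479 CPM in FOD-CCI replicate 1, and to no more than 15.1 CPM in the other 3. Totals ran from 22547190 to 43158491 counts. Replicates were distinct libraries, with the SOD-CCI libraries correlating at 0.935 to 0.974 (Spearman), FOD-CCI replicates 2 and 3 at 0.948, and FOD-CCI replicate 1 with these 2 at 0.842 and 0.830.

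**Figure D1:**
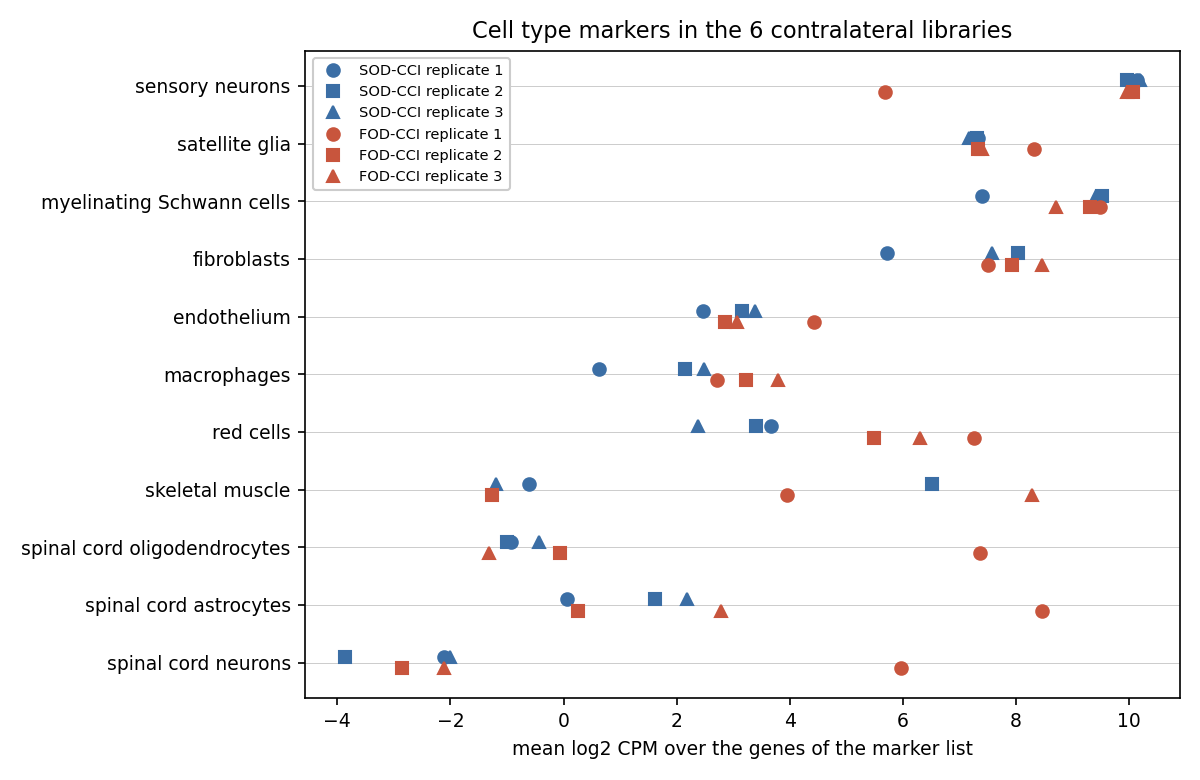
Mean log2 CPM (horizontal axis) over the genes of each of 11 marker lists (rows) in each of the 6 contralateral libraries, with SOD-CCI in blue and FOD-CCI in red and symbol shape giving the replicate. FOD-CCI replicate 1 lies at 5.68 for sensory neurons, apart from the other 5 at 9.96 to 10.19, and far to the right for the 3 spinal cord lists, while all 3 FOD-CCI libraries lie to the right of all SOD-CCI libraries for red cells and macrophages.

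With all 6 libraries, no gene passed the test. Calls required a fold change of 1.2 or more and an adjusted p (edgeR quasi-likelihood test, Benjamini–Hochberg) no higher than 0.1. Of 13590 genes tested, 0 were called (0% of all genes), the lowest adjusted p was 0.459, and 1292 genes (9.51%) had an unadjusted p under 0.05, 806 higher (5.93%) and 486 lower (3.58%) on FOD. limma-voom also called 0. DESeq2, which the study used with these thresholds, called 202 by its Wald test, and 441 without FOD-CCI replicate 1. The spread between rats, as the biological coefficient of variation, was 0.426 in the edgeR fit to all 6 libraries.

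With FOD-CCI replicate 1 left out, the coefficient was 0.349, and 17 of 14213 genes were called (0.12%), all of them higher on FOD. At an unadjusted p under 0.05 there were 1539 genes (10.8%), 863 higher (6.07%) and 676 lower (4.76%), of which 846 were also under 0.05 with all 6 libraries. All 17 called genes were among the latter. The calls rested on few libraries: leaving out SOD-CCI replicate 2, FOD-CCI replicate 2, or FOD-CCI replicate 3 as well left 0 called. Leaving out SOD-CCI replicate 1, the library low in Schwann cell markers, left 2 rats per diet and 1575 called, the 17 included. Leaving out SOD-CCI replicate 3 left 15 called, of which 6 were among the 17. Without SOD-CCI replicate 2 and FOD-CCI replicate 3 together, the libraries with the most skeletal muscle transcripts, 0 were called.

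Hemoglobin and neutrophil genes had the largest log2 fold changes of the called genes when all 6 libraries were fitted. Hba2, an alpha globin chain of red cells, was at 86.0, 62.8, and 27.2 CPM in SOD-CCI replicates 1 to 3 and at 1020, 300, and 553 CPM in FOD-CCI replicates 1 to 3. Hba-a1, another alpha globin, was at 1.21, 1.38, and 0.915 CPM on SOD and at 37.0, 10.8, and 18.6 CPM on FOD. In both genes every FOD library lay above every SOD library, including FOD-CCI replicate 1, which a rule that named them required. The log2 fold change of Hba2 was 3.41 ± 0.56 (SE, 3 against 3 rats, adjusted p = 0.459) with all libraries and 2.88 ± 0.44 without FOD-CCI replicate 1 (edgeR, adjusted p = 0.0858). That of Hba-a1 was 4.24 ± 0.56 in the first fit and 3.66 ± 0.50 in the second (edgeR, adjusted p = 0.459 and 0.0801).

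The other genes of red cells went the same way without passing the threshold. Hba1 was at 212, 202, and 79.6 CPM on SOD and at 2880, 656, and 1360 CPM on FOD. Hbb, the beta chain, was at 50.8, 57.8, and 20.9 CPM on SOD and at 785, 160, and 542 CPM on FOD. In both genes the diets did not overlap, which a rule that named them required. Ahsp, the alpha globin chaperone, and Slc4a1, the red cell anion exchanger, had log2 fold changes of 2.72 and 2.66 without FOD-CCI replicate 1, with adjusted p of 0.136 and 0.142 (edgeR). Of 10 symbols on the red cell list 8 were found and tested, and all 8 had an unadjusted p under 0.05 in both fits, with a median log2 fold change of 3.36 with 6 libraries and 2.79 without FOD-CCI replicate 1, beside medians over all tested genes of 0.02 and -0.03. The summed level of the list was 143 to 393 CPM on SOD and 1240 to 5190 CPM on FOD. Reads of near-identical globin copies may be shared between these genes, so their single values are uncertain. In bulk tissue, more cells of a type and more RNA per cell cannot be told apart.

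S100a8 and S100a9, the subunits of calprotectin that neutrophils and monocytes store, were both called. S100a8 was at 11.6, 8.98, and 4.87 CPM on SOD and at 146, 43.4, and 57.5 CPM on FOD. S100a9 was at 15.2, 10.6, and 5.83 CPM on SOD and at 206, 52.4, and 54.3 CPM on FOD. The groups did not overlap in either gene, which a rule that named them required, and FOD-CCI replicate 1 was the highest. The log2 fold changes were 3.28 ± 0.53 and 3.31 ± 0.61 with all libraries, and without that library 2.59 ± 0.37 (adjusted p = 0.0801) and 2.36 ± 0.37 (adjusted p = 0.0858). Np4, a neutrophil defensin, was at 2.72, 1.58, and 0.737 CPM on SOD and at 44.5, 15, and 17.1 CPM on FOD (log2 fold change 3.29 ± 0.56, adjusted p = 0.124). The summed red cell level given above was likewise higher in every FOD library, and its part in these differences was not tested.

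Lyz2, the lysozyme of macrophages and other myeloid cells, rose without FOD-CCI replicate 1. Its levels were 54.7, 73.7, and 98.3 CPM on SOD and 181, 288, and 424 CPM on FOD. Every FOD library was above every SOD library, which a rule that named it required of the libraries other than FOD-CCI replicate 1. The log2 fold change was 1.98 ± 0.39 with all libraries (adjusted p = 0.503) and 2.24 ± 0.31 without FOD-CCI replicate 1 (adjusted p = 0.0801).

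Genes of complement and MHC class II had higher levels on FOD, but none was called. Of 17 genes listed for complement and MHC class II, 11 had enough counts to be tested, and all 11 were higher on FOD in both fits, with a median log2 fold change of 1.61 with 6 libraries and 1.75 without FOD-CCI replicate 1. An unadjusted p under 0.05 was found for 9 and 8 of them. C1qa, a chain of the complement initiator C1q, was at 8.68, 14, and 15.8 CPM on SOD and at 111, 27.3, and 67.4 CPM on FOD. C1qb was at 3.77, 4.98, and 7.57 CPM and at 45, 13.0, and 34.8 CPM. FOD-CCI replicates 2 and 3 lay above the SOD libraries in both genes. FOD-CCI replicate 1, the library with markers of the central nervous system, was the highest.

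Further members of the list also had every FOD library above every SOD library, Ciita at low levels. FOD-CCI replicate 1 was the highest library in C3 and the lowest FOD library in Ciita. C3, the central complement protein, was at 1.66, 4.57, and 6.63 CPM on SOD and at 53.3, 14, and 19 CPM on FOD. Ciita, the transactivator of MHC class II genes, was at 0.415, 0.572, and 1.05 CPM on SOD and at 1.23, 2.85, and 3.89 CPM on FOD. Without FOD-CCI replicate 1 the log2 fold changes of C1qa, C1qb, C3, and Ciita were between 1.89 and 2.29, with adjusted p of 0.201 to 0.298 (edgeR). The macrophage marker list of 8 genes, which shares C1qa and C1qb with this one, summed to 27.4, 54.6, and 69.8 CPM on SOD and to 282, 117, and 202 CPM on FOD. Its lowest value came from SOD-CCI replicate 1, the library low in Schwann cell and fibroblast markers, in which Ptprc, the pan-leukocyte antigen CD45, was at 0. Cd163, a scavenger receptor of resident macrophages, was at 0 in FOD-CCI replicate 1. Mrc1, also on the list, was lowest in that library, at 2.3 CPM against 4.6 to 13.5 CPM in the others. Csf1r, C1qa, and C1qb were highest in it, so its sum rested on part of the list. The part of macrophage content in the complement values was not tested.

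Igfbp6, Postn, and S100a6 were high in FOD-CCI replicates 2 and 3 and not in FOD-CCI replicate 1. Igfbp6, a binding protein of IGF-II, was at 24.9, 46, and 43.7 CPM on SOD and at 26.9, 159, and 367 CPM on FOD. Postn, the matrix protein periostin, was at 2.64, 1.98, and 3.77 CPM on SOD and at 1.91, 18.6, and 23.1 CPM on FOD. S100a6, a calcium-binding protein of fibroblasts and glia, was at 511, 398, and 327 CPM on SOD and at 498, 1360, and 1570 CPM on FOD. In all 3 genes FOD-CCI replicate 1 lay within or below the SOD range. Their log2 fold changes were 2.28 ± 0.76, 2.38 ± 0.80, and 1.48 ± 0.45 with all libraries. Without that library they were called, with values of 2.79 ± 0.39, 2.90 ± 0.42, and 1.84 ± 0.26 (each with an adjusted p of 0.0801).

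Markers of fibroblasts were also higher in part. Without FOD-CCI replicate 1, 4 of the 5 genes tested of this list were higher, the median log2 fold change was 0.74 (1.03 after length correction), and 2 had an unadjusted p under 0.05. With all libraries the median was 0.74 as well, with 1 such gene. Lum, the matrix proteoglycan lumican, was at 26.5, 91.9, and 109 CPM on SOD and at 121, 219, and 292 CPM on FOD (1.75 ± 0.48 without FOD-CCI replicate 1, adjusted p = 0.292). Dcn, the related proteoglycan decorin, was at 134, 576, and 402 CPM on SOD and at 462, 851, and 1110 CPM on FOD (1.40 ± 0.48, adjusted p = 0.370). The diets were separate in Lum, while in Dcn FOD-CCI replicate 1 lay within the SOD range. Col3a1, a fibrillar collagen, overlapped, with 93.1 to 687 CPM on SOD and 245 to 799 CPM on FOD. Col1a1, another one, leaned the other way, with 146, 1110, and 570 CPM on SOD and 295, 397, and 494 CPM on FOD. SOD-CCI replicate 1 was the lowest library in Lum, Dcn, Col3a1, and Col1a1. The list averaged 8.04 and 7.58 in SOD-CCI replicates 2 and 3 on the log2 CPM scale. In FOD-CCI replicates 2 and 3 it averaged 7.93 and 8.45. Of 18 collagen genes tested, 7 were higher with 6 libraries (median -0.16) and 10 without FOD-CCI replicate 1 (median 0.11, and 0.48 after length correction). The part of fibroblast content in the values of Igfbp6, Postn, and S100a6 was not tested.

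Ribosomal protein genes were called and broadly higher on FOD. Rpl31 was at 361, 292, and 220 CPM on SOD and at 635, 825, and 1230 CPM on FOD. Rpl36a was at 112, 73.0, and 55.5 CPM on SOD and at 177, 261, and 330 CPM on FOD. Rpl22l1, a paralog of a large-subunit protein, was at 130, 68.5, and 62.4 CPM on SOD and at 114, 339, and 398 CPM on FOD. The groups did not overlap in the first 2 genes, and in Rpl22l1 FOD-CCI replicate 1 lay within the SOD range. The log2 fold changes were 1.63 ± 0.35, 1.68 ± 0.35, and 1.72 ± 0.49 with all libraries, and without that library 1.83 ± 0.29 (adjusted p = 0.0858), 1.89 ± 0.30 (adjusted p = 0.0916), and 2.10 ± 0.32 (adjusted p = 0.0858).

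Of 81 ribosomal protein genes tested, 79 were higher on FOD with 6 libraries and 77 without FOD-CCI replicate 1, beside 51.3% and 47.7% of all genes. The median log2 fold changes were 0.62 and 0.61. In the second fit 2 members were called, 37 had an unadjusted p under 0.05 in the higher direction, and 0 in the lower. Rps14 and Rps27a, proteins of the small subunit, had log2 fold changes of 1.94 (adjusted p = 0.105) and 2.13 (adjusted p = 0.136). Many ribosomal protein genes have near-identical copies in the genome, so reads may be split between them.

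Cox7b and Atp5e, subunits of cytochrome c oxidase and of ATP synthase, were the called members of oxidative phosphorylation. Cox7b was at 163, 114, and 117 CPM on SOD and at 166, 547, and 434 CPM on FOD. Atp5e was at 175, 124, and 119 CPM on SOD and at 181, 453, and 513 CPM on FOD. FOD-CCI replicate 1 stood just above the highest SOD library in both. The log2 fold changes were 1.55 ± 0.43 and 1.46 ± 0.41 with all libraries, and without this one 1.91 ± 0.26 and 1.80 ± 0.25 (both with an adjusted p of 0.0801). Of 84 nuclear genes for subunits of the respiratory chain and ATP synthase, 68 were higher with 6 libraries (median 0.30) and 73 without FOD-CCI replicate 1 (median 0.36). In the second fit 16 had an unadjusted p under 0.05 in the higher direction and 0 in the lower.

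The remaining called genes were Fkbp3, a nuclear immunophilin, and 3 genes with a locus or sequence code in the files. RefSeq lists LOC100911847 as Rps14-ps7, a copy of the ribosomal protein gene Rps14, RGD1565641 as Rbis, a ribosomal biogenesis factor, and LOC100362366 as a transcribed pseudogene. Fkbp3 was at 437, 291, and 312 CPM on SOD and at 265, 1070, and 1110 CPM on FOD, so FOD-CCI replicate 1 lay below the SOD range. Its log2 fold change was 1.24 ± 0.51 with all libraries and 1.67 ± 0.26 without that library (adjusted p = 0.0858). LOC100362366, LOC100911847, and RGD1565641 had log2 fold changes of 2.17, 1.86, and 1.82 with all libraries and of 2.36, 2.11, and 2.19 without FOD-CCI replicate 1.

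**Figure D2:**
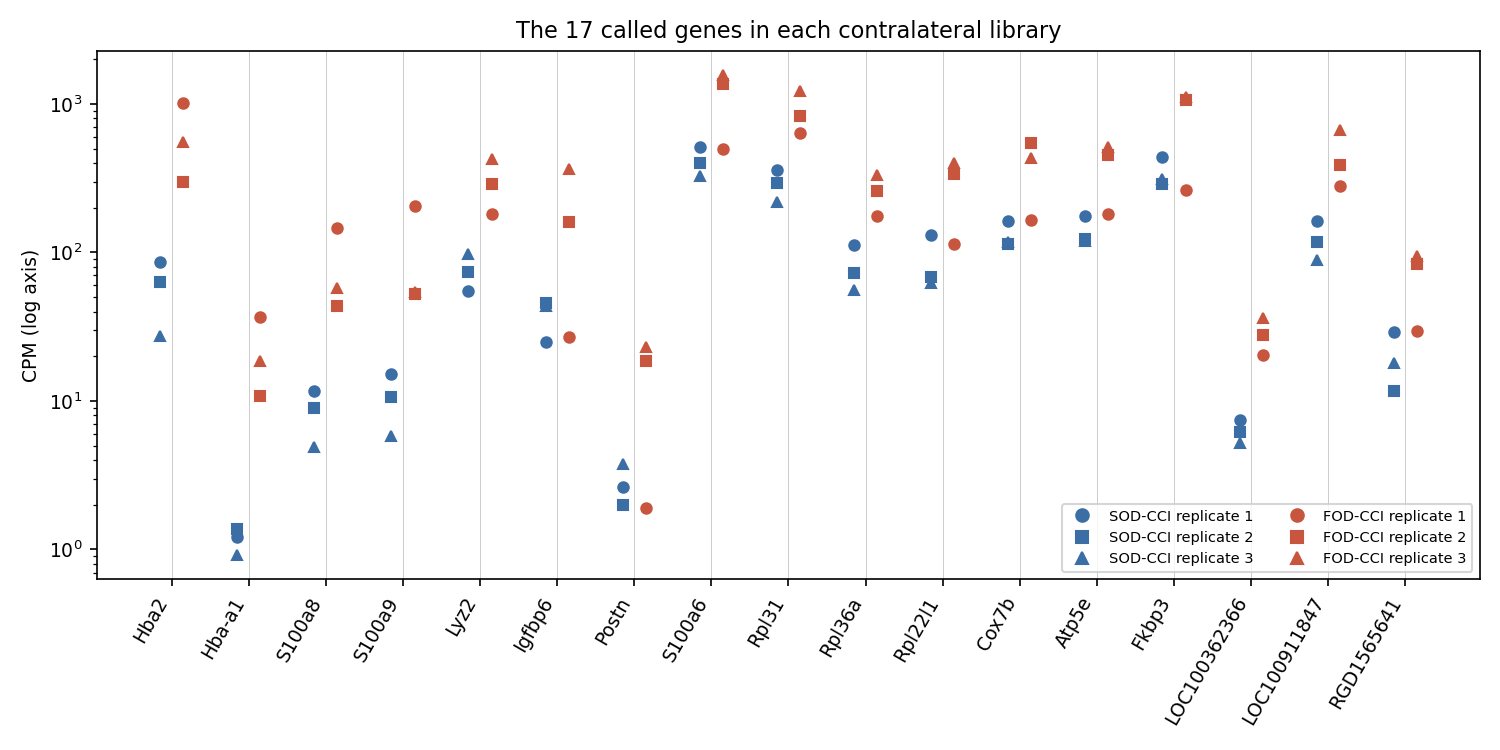
CPM on a log axis for the 17 genes called without FOD-CCI replicate 1, in each contralateral library, with SOD-CCI in blue, FOD-CCI in red, and symbol shape giving the replicate. FOD-CCI replicates 2 and 3 lie above all 3 SOD-CCI libraries in every gene, while FOD-CCI replicate 1 is the highest library for Hba2, Hba-a1, S100a8, and S100a9 and lies among or below the SOD-CCI libraries for Igfbp6, Postn, S100a6, Rpl22l1, and Fkbp3.

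Called genes were mostly short. The median length, as the table of counts gives it, was 487 bases for the 17 called genes and 2345 bases for all genes tested, and 12 of the 17 were shorter than 600 bases, as were 3.02% of all genes tested. Across genes, the log2 fold change decreased with length: Spearman's rho was -0.27 over 13590 genes with 6 libraries and -0.35 over 14213 genes without FOD-CCI replicate 1. These are descriptions across genes, which share the same libraries. In the second fit, genes with a median length of 507.5 bases had a median log2 fold change of 0.56, and 83.0% were higher, while genes with a median length of 7646 bases had -0.35, and 22.9% were higher.

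The libraries differed in the level of short against long genes. The median level of 393 genes shorter than 600 bases minus that of 1249 genes of at least 6000 bases, on the log2 CPM scale, was -0.02, -0.99, and -1.15 in SOD-CCI replicates 1 to 3 and 0.04, 0.28, and 0.33 in FOD-CCI replicates 1 to 3. SOD-CCI replicate 1 was thus close to the FOD libraries. When a smooth trend over length was removed from each library, 0 genes were called in either fit, with lowest adjusted p of 0.599 and 0.123, and 1118 (8.23%) and 1338 genes (9.41%) had an unadjusted p under 0.05. The log2 fold changes of the called genes were then 3.00 for Hba-a1, 2.38 for Hba2, 2.0 for Lyz2, 1.94 for S100a8, 3.02 for Postn, and 2.38 for Igfbp6, against 1.21 for Rpl31, 1.32 for Cox7b, and 1.13 for Atp5e. The medians of the lists changed unequally: from 0.61 to 0.16 for ribosomal proteins, from 0.36 to -0.01 for oxidative phosphorylation, from 1.75 to 1.54 for complement and MHC class II, and from 2.79 to 2.37 for red cells.

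With SOD-CCI replicate 1 left out as well, the length-corrected fit of 2 against 2 libraries called 461 genes, 311 higher and 150 lower on FOD, against 1575 without the correction. All 17 genes were among the 461. The ribosomal protein median was 0.23 and the complement and MHC class II median 1.02 in that fit.

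**Figure D3:**
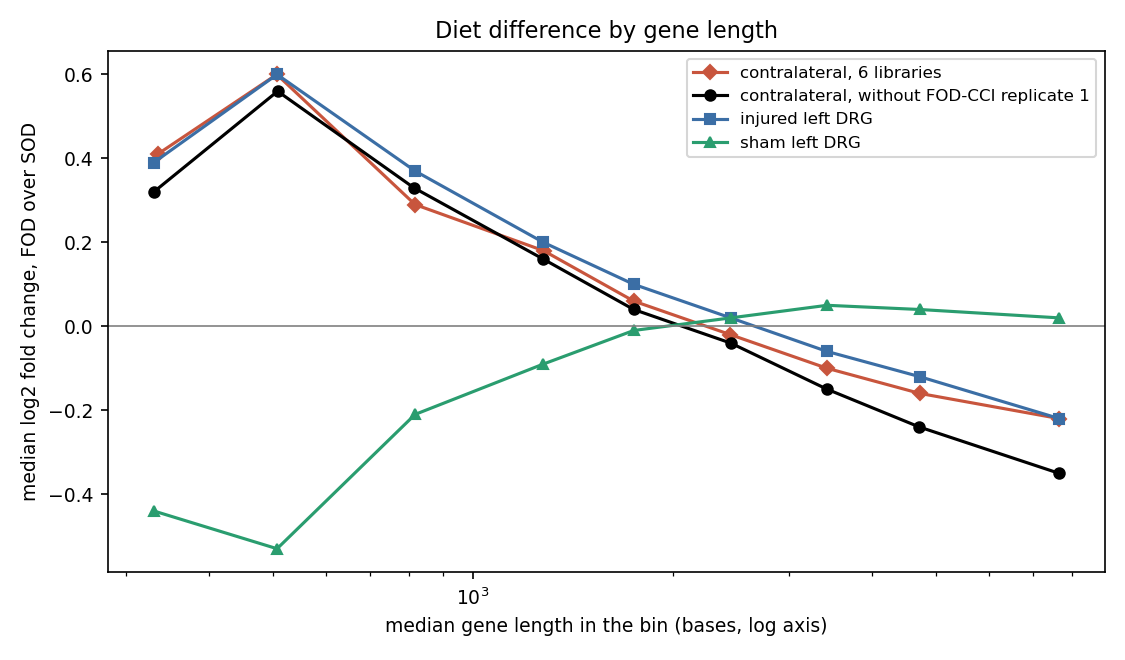
Median log2 fold change, FOD over SOD, of genes binned by length (log axis, bases) for the contralateral comparison with 6 libraries and without FOD-CCI replicate 1, for injured left DRG, and for sham left DRG. Both contralateral lines and the injured line fall from above 0 for short genes to below 0 for long genes, and the sham line starts at -0.44 in the shortest bin.

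edgeR called no gene as lower on FOD in either fit (486 and 676 genes at an unadjusted p under 0.05), while the DESeq2 Wald test called 25 lower genes with 6 libraries and 138 without FOD-CCI replicate 1. The lower genes named here did not pass the edgeR threshold. Casz1, a zinc finger transcription factor, was at 26.3, 34.0, and 29.3 CPM on SOD and at 7.10, 13.1, and 8.79 CPM on FOD. Arfgef3, a relative of the guanine exchange factors of ARF proteins, was at 41.9, 74.3, and 84.4 CPM on SOD and at 11.0, 22.2, and 26.3 CPM on FOD. Atm, the kinase of the DNA break response, was at 17.1, 16.5, and 19.8 CPM on SOD and at 4.34, 7.42, and 5.83 CPM on FOD. The groups were separate in all 3 genes, with every FOD library below every SOD library, which the rule for naming them required. The log2 fold changes were -1.63, -1.75, and -1.60 with 6 libraries (unadjusted p = 0.00117, 0.00208, and 0.00223, edgeR with an adjusted p of 0.503) and -1.44, -1.46, and -1.41 without FOD-CCI replicate 1.

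Casz1, Arfgef3, and Atm are long genes (13936, 8728, and 9756 bases), and with the length trend removed their log2 fold changes were -1.02, -1.07, and -1.07. Shorter genes named by the same rule, and so with the same order of libraries, were Ctsf, the lysosomal protease cathepsin F, and Mcph1, which encodes microcephalin. Ctsf was at 221, 229, and 209 CPM on SOD and at 126, 114, and 110 CPM on FOD (log2 fold change -0.96 ± 0.23, adjusted p = 0.237, and -1.01 after length correction). Mcph1 was at 4.56, 5.18, and 4.69 CPM on SOD and at 1.66, 0.875, and 0.567 CPM on FOD (-2.72 ± 0.61, adjusted p = 0.209). Of the genes lower without FOD-CCI replicate 1, Rasgrp1, an exchange factor of Ras, was at 18.1, 16.8, and 16.5 CPM on SOD and at 10.7, 4.91, and 4.29 CPM on FOD (-1.89 ± 0.37, adjusted p = 0.149). Lifr, the receptor of leukemia inhibitory factor, was at 93.1, 112, and 110 CPM and at 15, 51.2, and 49.1 CPM (-1.06 ± 0.23, adjusted p = 0.201).

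The separation of groups was common among all genes. Without FOD-CCI replicate 1, the libraries of both diets did not overlap in 13.8% of genes with FOD higher and in 15.4% with FOD lower, and with all 6 libraries in 7.95% and 9.12%.

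Ion channels and receptors of nociceptors leaned lower on FOD without any call. With all 6 libraries the median log2 fold change of the 21 genes tested was -0.65, which included FOD-CCI replicate 1 with its low neuron markers. Without it, 28 genes could be tested, the median was -0.29, 4 were higher, and 3 had an unadjusted p under 0.05 in the lower direction and 0 in the higher. Cacna1b, the N-type calcium channel, was at 64.7, 76.1, and 99.9 CPM on SOD and at 16.9, 45, and 51.8 CPM on FOD. Each FOD library lay below each SOD library.

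Among the channels, those of myelinated axons varied with SOD-CCI replicate 1. Kcna2, the juxtaparanodal potassium channel, was at 9.39, 61.2, and 63.8 CPM on SOD and at 27.8, 19, and 11.8 CPM on FOD. Scn8a, the nodal sodium channel, was at 41.0, 142, and 164 CPM and at 44.6, 60.4, and 58.1 CPM. SOD-CCI replicate 1 was the lowest SOD library in both, and the groups overlapped. Scn10a, the sodium channel of nociceptors, was at 318, 289, and 371 CPM on SOD, at 235 and 265 CPM in FOD-CCI replicates 2 and 3, and at 0 in FOD-CCI replicate 1 (log2 fold change -0.37 ± 0.24 without the last, adjusted p = 0.592). After length correction the median of the list was -0.14. The sensory neuron markers had a median of -0.07 without FOD-CCI replicate 1.

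No neuropeptide or nerve injury gene was called. Of 9 neuropeptide genes tested without FOD-CCI replicate 1, 8 were higher, the median was 0.46 (0.12 over 8 genes with all libraries), and 0 had an unadjusted p under 0.05. Tac1, the substance P precursor, was at 434, 166, and 226 CPM on SOD and at 416 and 346 CPM in FOD-CCI replicates 2 and 3, and at 39.1 CPM in FOD-CCI replicate 1. The groups overlapped. Of 15 nerve injury genes, 9 were higher with a median of 0.05, and of 15 immediate early genes 13 were higher with a median of 0.45 without FOD-CCI replicate 1. With all libraries these medians were -0.07 and 0.67. Klf2 and Klf4, zinc finger factors of endothelium and other cells, were the 2 immediate early genes with an unadjusted p under 0.05. Klf2 was at 1.09, 3.50, and 5.81 CPM on SOD and at 12.5, 12.2, and 13.7 CPM on FOD (log2 fold change 1.89 ± 0.62, adjusted p = 0.359).

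The genes by which dietary fish oil is known to act on lipid metabolism were not called. Of 18 genes of PUFA synthesis and lipogenesis, 3 were higher with 6 libraries and 5 without FOD-CCI replicate 1, with medians of -0.38 and -0.13. Fads1, the delta-5 desaturase, was at 377, 287, and 258 CPM on SOD and at 185, 295, and 234 CPM on FOD. Fads2, the delta-6 desaturase, was at 182, 151, and 134 CPM on SOD and at 80.8, 129, and 157 CPM on FOD. Fasn, fatty acid synthase, was at 417, 627, and 611 CPM on SOD and at 358, 370, and 410 CPM on FOD. The groups overlapped in both desaturases, with FOD-CCI replicate 1 the lowest library, and were separate in Fasn. The log2 fold changes were -0.36, -0.34, and -0.54 with all libraries, and without FOD-CCI replicate 1 -0.20 ± 0.26, -0.11 ± 0.24, and -0.49 ± 0.27, with adjusted p of 0.803, 0.897, and 0.534.

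The other lipid lists had medians between -0.19 and 0.19. Medians without FOD-CCI replicate 1 were 0.00 for 24 genes of cholesterol synthesis, -0.18 for 24 PPAR targets and fatty acid oxidation genes, 0.02 for 13 genes of fatty acid uptake, 0.19 for 11 eicosanoid enzymes, 0.01 for 10 receptors of prostaglandins and omega-3 fatty acids, and -0.19 for 23 genes of phospholipid synthesis. With all libraries the receptor median was -0.31 over 9 genes. Of the 23 phospholipid genes, 3 had an unadjusted p under 0.05 in the lower direction without FOD-CCI replicate 1 and 0 in the higher, without a call. In 6 genes FOD-CCI replicates 2 and 3 lay below all SOD libraries, as in 15.4% of all genes, and in 1 above. With all 6 libraries the diets were separate with FOD lower in 4, beside 9.12% of all genes, and with FOD higher in 1. Among cholesterol genes, Idi1, an isomerase of the isoprenoid steps, was at 152, 139, and 155 CPM on SOD and at 184, 226, and 201 CPM on FOD. The FOD libraries were all higher, and its log2 fold change of 0.53 ± 0.22 was the only one of the list with an unadjusted p under 0.05 (adjusted p = 0.432, edgeR).

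Selenoproteins were higher on FOD in part. Of 22 genes tested, 16 were higher with 6 libraries and 15 without FOD-CCI replicate 1, with medians of 0.36 and 0.35, and 4 and 7 had an unadjusted p under 0.05 in the higher direction. Gpx1, the cytosolic glutathione peroxidase, was at 77.1, 74.7, and 66.4 CPM on SOD and at 119, 134, and 189 CPM on FOD. Gpx4, the peroxidase of membrane lipids, was at 862, 496, and 441 CPM on SOD and at 537, 1230, and 1510 CPM on FOD. The groups were separate in Gpx1, and in Gpx4 FOD-CCI replicate 1 lay within the SOD range. Sepp1, the secreted selenium carrier, was at 483, 472, and 393 CPM on SOD and at 1580, 732, and 640 CPM on FOD, with FOD-CCI replicate 1 the highest.

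With all libraries Gpx1, Gpx4, and Sepp1 had log2 fold changes of 1.02, 0.88, and 1.13. Those without FOD-CCI replicate 1 were 1.16 ± 0.24 for Gpx1 (adjusted p = 0.156), 1.21 ± 0.31 for Gpx4 (adjusted p = 0.287), and 0.62 ± 0.24 for Sepp1 (adjusted p = 0.400). After length correction the list median was 0.14, and 7 genes were under an unadjusted p of 0.05 in the higher direction. The 21 genes of NRF2 targets and iron handling had a median of 0.09, of which Prdx1, a peroxiredoxin, was at 406, 273, and 249 CPM on SOD and at 344, 538, and 740 CPM on FOD (1.06 ± 0.28, adjusted p = 0.292).

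Circadian clock and Hox genes had lower medians once FOD-CCI replicate 1 was left out. The clock median was 0.83 with 6 libraries and 0.23 without it, and the Hox median 0.40 and -0.05. Without that library 9 of 19 Hox genes were higher, and 2 higher and 1 lower had an unadjusted p under 0.05 (edgeR). Hoxd4, a homeobox gene of axial position, kept its difference: it was at 5.21, 5.58, and 5.43 CPM on SOD and at 9.48, 16.9, and 22.7 CPM on FOD (1.88 ± 0.36 without FOD-CCI replicate 1, adjusted p = 0.136). Hoxd9 went the other way in FOD-CCI replicates 2 and 3. It was at 15.3, 14.8, and 13 CPM on SOD and at 26.8, 8.87, and 5.51 CPM on FOD. The interferon list had a median of 0.52 with all libraries and 0.61 without that library over 14 genes, 13 of them higher, with an unadjusted p under 0.05 for 2. Medians were -0.06 for the integrated stress response, 0.02 for heat shock proteins, and -0.03 for proliferation genes.

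**Figure D4:**
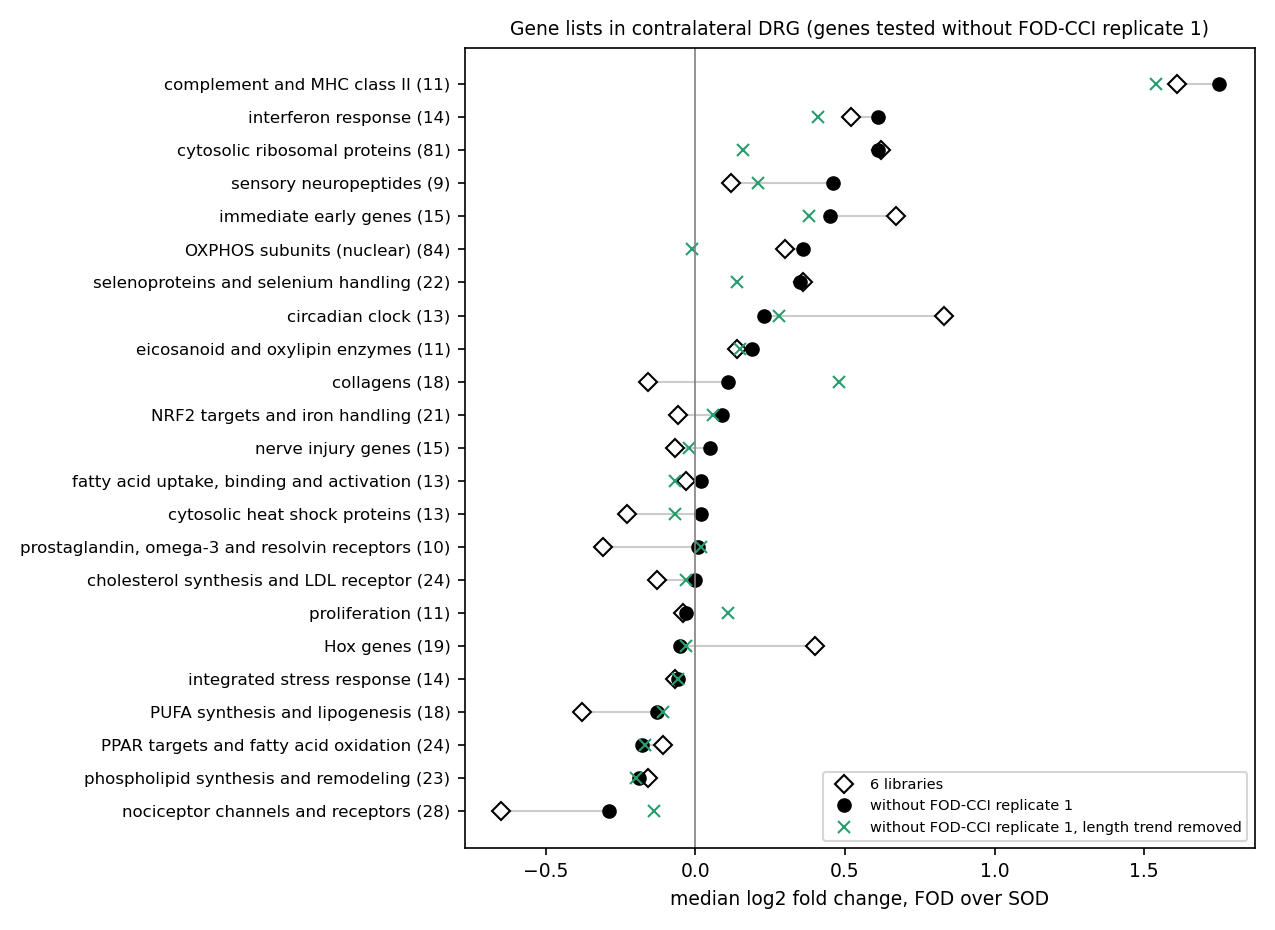
Median log2 fold change, FOD over SOD, of each gene list in contralateral DRG, with all 6 libraries (open diamonds), without FOD-CCI replicate 1 (filled circles), and without it after removing the trend over gene length (crosses); the number of genes tested stands in brackets. Complement and MHC class II genes lie farthest right at 1.61, 1.75, and 1.54, and ribosomal proteins and oxidative phosphorylation move toward 0 after the length correction.

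The diet difference was then set beside that in sham rats, whose libraries come from other animals and from the left side. In 1 fit to all 20 libraries, 0 genes were called for the sham difference (0% of 14435, with 468 genes or 3.24% at an unadjusted p under 0.05), and 0 for the contralateral minus sham difference, the interaction (lowest adjusted p 0.748, with 943 genes or 6.53% at an unadjusted p under 0.05). The DESeq2 Wald test called 0 and 30. With all sham libraries, 0 of the 17 genes, most of them short, were higher on FOD. The share was 48.6% of all genes tested and 18.2% of genes in the bin with a median length of 506.5 bases. The median log2 fold change of the 17 was 2.19 in contralateral DRG without FOD-CCI replicate 1 and -0.77 in sham DRG. With SOD-CT replicate 3 or replicate 4 left out, 1 of the 17 was higher, and without SOD-CT replicate 1 the sham median was -0.33. FOD-CT replicate 1 also carried spinal cord transcripts, and without it the sham median was -0.72. All 17 had an unadjusted interaction p under 0.05, which was read on genes chosen for the contralateral difference and is given as a description.

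The sham values of the blood and ribosomal genes rested on single libraries. Hba2 was at 293, 87.1, 30.1, and 1690 CPM in SOD-CT replicates 1 to 4 and at 187, 174, and 89.8 CPM in FOD-CT replicates 1 to 3. S100a8 was at 44.9, 11.5, 3.54, and 232 CPM and at 9.32, 27.2, and 10.3 CPM. SOD-CT replicate 4 was the highest library in both, and without it the sham median of the red cell genes moved from -2.18 to 0.05, with 5 of 8 genes higher. Rpl31 was at 1770, 555, 428, and 876 CPM in SOD-CT replicates 1 to 4 and at 410, 626, and 556 CPM in FOD-CT replicates. SOD-CT replicate 1 was the highest in Rpl31, and its skeletal muscle transcripts summed to 178000 CPM, against 6.50 to 25900 CPM in the other sham libraries. Without it the sham median of the ribosomal proteins moved from -0.44 to -0.01, and the interaction median from 1.09 to 0.69. For oxidative phosphorylation the same step moved them from -0.71 to 0.05 and from 0.97 to 0.21. The part of the muscle transcripts in these values was not tested.

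The injured left DRG of FOD-CCI replicates 1 to 3 and of the 3 SOD-CCI rats came from the rats of the contralateral DRG, so the comparisons share animals, while FOD-CCI replicate 4 was a further rat. The left library of FOD-CCI replicate 1 also carried spinal cord transcripts, with 1830 CPM of oligodendrocyte markers against at most 143 CPM in the other 6 injured libraries. No gene was called there in the same fit (0% of 14435, with 694 genes or 4.81% at an unadjusted p under 0.05). All 17 genes had a positive log2 fold change on the injured side, where 54.3% of all genes did. Most of the 17 were short, and among genes with a median length of 506.5 bases 88.1% were higher there. Beside the contralateral log2 fold changes of 3.41 for Hba2, 1.98 for Lyz2, and 1.62 for Rpl31 in the 20-library fit, those of the injured side were 4.37, 1.46, and 1.45. In FOD-CCI left DRG Hba2 was at 118, 4310, 392, and 350 CPM, and in SOD-CCI left DRG at 17, 62.0, and 109 CPM, so every FOD library lay above every SOD library there too. Lyz2 was at 54.2, 1560, 688, and 1290 CPM in FOD-CCI left DRG and at 242, 381, and 358 CPM in SOD-CCI left DRG, and the groups overlapped through FOD-CCI replicate 1 alone. Without the 3 libraries with spinal cord transcripts the injured log2 fold changes were 4.76 for Hba2, 1.85 for Lyz2, and 1.66 for Rpl31. Postn had a log2 fold change of 2.37 ± 1.01 in contralateral DRG and 0.20 ± 0.90 in injured DRG (0.55 ± 0.73 without those 3 libraries), and the difference between the sides was not tested.

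**Figure D5:**
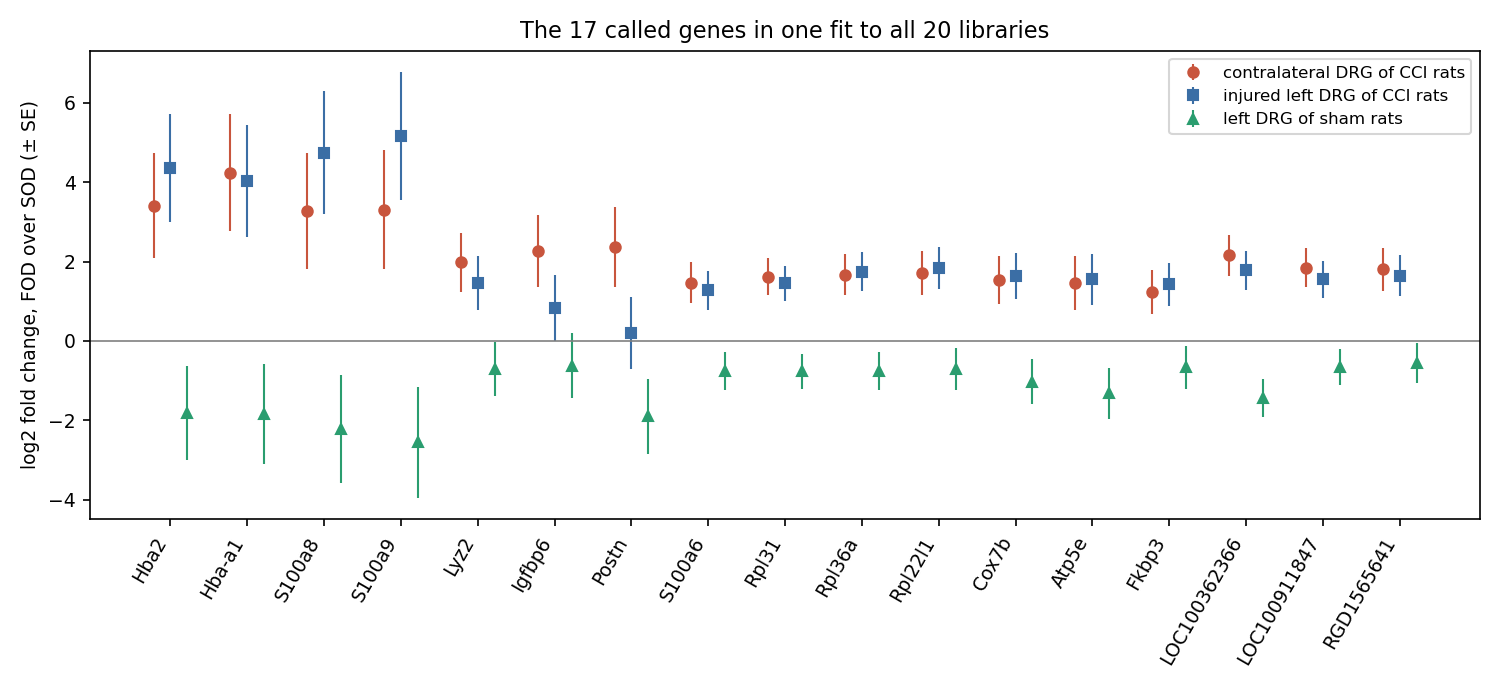
Log2 fold change, FOD over SOD (± SE), of the 17 called genes in 1 fit to all 20 libraries, for contralateral DRG of CCI rats (red circles), injured left DRG of CCI rats (blue squares), and left DRG of sham rats (green triangles). All 17 genes lie above 0 in both ganglia of CCI rats and below 0 in sham rats, with wide errors for the hemoglobin and S100 genes.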

How the data were processed

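RNA from rat DRG had been poly(A)-selected and sequenced as 20 libraries, of which the 6 contralateral libraries are described here and the sham and injured libraries serve for comparison. The deposited counts are whole fragments per gene, which the authors obtained with fastp, HISAT2, and featureCounts (1.5.0-p3). FPKM values, which the authors derived from counts and gene lengths, entered no test. Build, strand setting, and treatment of multi-mapping reads are not given in the sources used here. Library preparation is described for both stranded and unstranded kits, so overlapping and antisense genes are uncertain. Of 39747 genes in the table, 70.7% of the IDs were found in the GRCr8 annotation, and 3781 rows without a symbol held 0.956% of the counts.

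Counts were analysed in R 4.3.3 with edgeR 4.0.16 (TMM, two-sided quasi-likelihood test, Benjamini–Hochberg adjustment over all tested genes), and limma 3.58.1 and DESeq2 1.42.0 served as alternatives. A gene entered a fit when 90% of its libraries, here all 6 or all 5, held 10 or more counts. The contralateral fits held the contralateral libraries alone, and the sham and interaction contrasts came from 1 fit to all 20. The length correction removed a smooth trend (loess, span 0.3) over log2 gene length from each library. The scripts were tested on simulated data. Groups came from the sample labels, and 0 columns were left without a sample. Separate rats underlie the replicates of a group, and the contralateral p-values rest on 3 rats per diet at most. Groups of the fit to all 20 libraries held 3 or 4 rats. That fit took the left and right libraries of the same CCI rats as separate, without a term for the rat.

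Genes were named if they were among the 10 higher and 10 lower genes with the smallest p in either fit (with a symbol, no overlap of groups, and a mean of at least 1 CPM), were called members of a list, were among the 4 members of a list with the smallest p, were discussed by the study for DRG, or were markers that moved with a library. Members and lists were chosen with earlier results of these data known. The called genes without a symbol, and further genes of the dietary lipid lists, were named after their values were seen. Some genes that met the rule are not reported here. Alternatives changed the test, the normalization, the filter, the libraries in the fit, the replicate block, and the length correction, and left out each library in turn.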

Additional observations from a re-analysis of the deposited data

Results flagged for a closer look

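Hba2, S100a8, Lyz2, Rpl31, and Atp5e were checked for gaps in the groups of 4 libraries, SOD-CT and FOD-CCI left DRG. Other genes were not checked in this way. In 4 of these sets of values the gap of the highest library to the next exceeded Dixon's limit at 95%. For normally distributed values chance alone exceeds that limit in about 1 of 20 such sets. CPM need not be so distributed, and sets that share libraries are not independent. Hba2 reached 1690 CPM in SOD-CT replicate 4, beside 30.1 to 293 CPM in the other SOD-CT libraries. In FOD-CCI left DRG, replicate 2 held the highest value of all 3 genes concerned. Hba2 was at 4310 CPM there against 118 to 392 CPM, S100a8 at 919 CPM against 20.8 to 43.6 CPM, and Atp5e at 708 CPM against 268 to 289 CPM. The contralateral groups held 3 libraries each, too few for this comparison of gaps.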

How the results depend on the processing

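The count of called genes depended on the processing. With all 6 libraries it was 0 in most alternatives, including the replicate block, but 202 with the DESeq2 Wald test (177 higher, 25 lower), and 0 to 17 when single libraries were left out. Without FOD-CCI replicate 1 the main count of 17 became 441 with DESeq2 (303 higher, 138 lower), 99 with no filter on low counts, and 0 with filterByExpr, with all other libraries in 1 fit, and with the length trend removed. It ranged from 0 to 1575 when a further library was left out, where an arm of 1 library is assumed to vary like the other. Alternatives chosen after seeing the data gave 0 without the 2 libraries richest in muscle transcripts and 461 with the length trend and SOD-CCI replicate 1 removed. The interaction count was 0 except for 30 with DESeq2, and the sham count was 0 in every alternative run.

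Same-numbered libraries of both diets had correlations of -0.14, -0.20, and -0.11 in their deviations from the group means. These deviations include the unlike composition of FOD-CCI replicate 1 and SOD-CCI replicate 1. They therefore cannot show whether replicate numbers mark a shared block. The replicate block without FOD-CCI replicate 1 leaves 1 residual degree of freedom and called 1825 genes, 935 higher and 890 lower.

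Of the named genes, Fads2 changed sign to 0.01 without SOD-CCI replicate 1 and to 0.04 without FOD-CCI replicate 2 as well, and with the length trend and SOD-CCI replicate 1 removed Fads1 was at 0.12 and Elovl2 at 0.20. List medians moved by more than the spread between replicates in 17 of 345 alternatives with 6 libraries and in 36 of 345 without FOD-CCI replicate 1. The cause was not tested. Totals were at least 22547190 counts, and whether depth limited the calls was not tested.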
